A study of Mus musculus with 10 samples.

Results

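The genes described here are 10 markers of microglia, the resident macrophages of the brain: Cx3cr1, Csf1r, Itgam, Tyrobp, Fcer1g, Ptprc, Aif1, Cd68, Ctss and Laptm5. RNA came from the hippocampus of male C57BL/6 mice at 30 months of age, 5 on long-term calorie restriction and 5 on a control diet. Each mouse was hybridised to 1 array, and the labels give neither the degree of restriction nor the age at which it began. The markers are all probe sets (groups of short probes against 1 transcript) that the platform's annotation assigns to only 1 of these genes, which gave 16 of the 12422 probe sets other than controls. Every gene had at least 1: 5 genes had 1 probe set and 5 had more.

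Microglia survey neural tissue, engulf debris and synapses, and carry receptors that read signals from neurons. Cx3cr1 is the receptor for fractalkine, a neuronal chemokine, and Csf1r is the growth factor receptor on which microglial survival depends. Itgam (CD11b) is the alpha chain of complement receptor 3. Tyrobp (DAP12) and Fcer1g are membrane adaptors whose activation motifs pass signals from receptors such as Trem2 and the Fc receptors to the kinase Syk. Ptprc (CD45) is a tyrosine phosphatase of all leukocytes, and Aif1 (Iba1) is the actin-binding protein whose antibody stain is the standard picture of microglia. Cd68, the cysteine protease cathepsin S (Ctss) and Laptm5 belong to the endosomes and lysosomes in which engulfed material is broken down. In whole tissue, fewer microglia and less RNA per microglial cell cannot be told apart.

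The upstream sequences of the 3 genes with a tested probe set whose diets did not overlap are shown here. Over the array 14.3% of tested probe sets did not overlap either. Each is the 250 bases before the transcription start, on the strand of the gene, from RefSeq (GRCm38.p6). Capitals mark GAGGAA or its reverse complement TTCCTC, a core to which the myeloid factor PU.1 (Spi1) and other ETS factors can bind.
Cx3cr1: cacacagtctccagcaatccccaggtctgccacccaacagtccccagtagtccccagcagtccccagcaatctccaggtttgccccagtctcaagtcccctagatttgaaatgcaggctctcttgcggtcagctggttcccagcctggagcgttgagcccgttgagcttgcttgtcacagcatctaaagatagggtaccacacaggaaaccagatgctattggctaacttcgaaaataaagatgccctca
Cd68: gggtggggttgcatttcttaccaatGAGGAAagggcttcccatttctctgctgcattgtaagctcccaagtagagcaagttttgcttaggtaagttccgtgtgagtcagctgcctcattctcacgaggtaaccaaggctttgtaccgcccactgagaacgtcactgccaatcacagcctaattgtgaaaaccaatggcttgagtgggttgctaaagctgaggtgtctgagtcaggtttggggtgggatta
Aif1: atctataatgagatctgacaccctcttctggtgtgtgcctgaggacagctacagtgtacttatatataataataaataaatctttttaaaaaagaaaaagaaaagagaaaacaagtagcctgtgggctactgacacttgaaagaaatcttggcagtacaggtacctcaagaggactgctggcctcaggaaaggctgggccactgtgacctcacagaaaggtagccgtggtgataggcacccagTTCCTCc
The Cx3cr1 window lies at chr9:120068297-120068546, minus strand, and holds 0 copies. The Cd68 window lies at chr11:69666171-69666420, minus strand, and the Aif1 window at chr17:35176053-35176302, minus strand, with 1 copy each. Among 9 such windows of 8 marker genes, 6 held the motif on either strand, and so did 23.3% of 32851 windows over the genome. A match is a run of letters and not a measured binding site, and no match says only that these letters are missing from that window.

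Values are the deposited linear intensities, whose mean without the lowest and highest 2% was 499.8 to 499.9 on all 10 arrays. They were taken to log2 for the tests, and changes are calorie restricted minus control. Relative changes have the median over every tested probe set, -0.15 on the log2 scale, taken off. A probe set was tested where its mean log2 signal reached 6.85, which kept 7453 probe sets. It passed at an adjusted p under 0.05 in limma, a linear model fitted over all of them, whose p tests the change before that median is taken off. Of the 16 marker probe sets, 9 were tested, for Cx3cr1, Csf1r, Aif1, Tyrobp, Ctss, Cd68 and Laptm5, and 7 lay below the signal filter. Itgam, Ptprc and Fcer1g had no tested probe set. The calorie restricted arrays also differed in RNA quality. The Gapdh control signal at the 3' end was 82.7 and 160.7 times that at the 5' end in calorie restricted replicates 3 and 5, and 1.24 to 1.98 times in the other three, against 0.815 to 1.53 times in control mice. The Actb ratio ran from 2.32 to 29.7 in calorie restricted mice, against 1.05 to 1.61 in control mice. Spike-in log2 signal ran from 12.41 to 13.67 in calorie restricted mice, against 10.50 to 11.80 in control mice, and neither it nor the Actb ratio overlapped between diets. The part of these differences in the results that follow was not tested beyond the fits given beside them. Of 10 measured hippocampal neuron genes, each by its brightest probe set, 9 passed the signal filter. The exception was Prox1, a factor of dentate granule cells. The filter also passed 7453 of all 12422 probe sets, so these genes passing it says little about the tissue dissected.

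Cx3cr1 and the lysosomal glycoprotein Cd68 were lower in calorie restricted hippocampus, Aif1 was higher without passing, and the other markers did not pass. Of the 9 tested marker probe sets, 2 passed, both lower, while 11.8% of all tested probe sets passed in either direction, 4.11% as higher and 7.74% as lower. Without calorie restricted replicates 3 and 5, 3 passed, all lower, with Laptm5 added, and 10.5% of the array did. At an unadjusted p under 0.05 there were 4 of the 9, and 31.6% over the array. The median relative log2 change of the 9 was -0.17, and over the 7 genes, each by its brightest probe set, it was 0.29. That value turned to -0.11 under quantile normalization, -0.28 with RNA quality in the fit and -0.10 without replicates 3 and 5. By construction it was 0 over all tested probe sets. Of the 9 relative changes, 4 were above 0 and 5 below.

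Cx3cr1 had intensities of 430.8, 447.0, 414.2, 320.7 and 327.9 in calorie restricted replicates 1 to 5, against 790.5, 874.6, 1178, 892.9 and 528.6 in control replicates 1 to 5. All 5 calorie restricted mice lay below the lowest control mouse, replicate 5. Mean intensity was 388.1 ± 59.5 (SD, n = 5) in calorie restricted mice, against 852.9 ± 232.9 (SD, n = 5) in control mice. The relative log2 change was -0.95 ± 0.22 (SE), or 1.93-fold lower (limma adjusted p = 0.0145). Leaving out calorie restricted replicates 3 and 5, the 2 arrays with the lowest RNA quality, gave -0.96 (limma adjusted p = 0.0229). With RNA quality as a covariate it was -0.88 and missed the threshold (limma adjusted p = 0.0587). Adding spike-in signal to that fit gave -0.70 ± 0.55 (SE; limma adjusted p = 0.580). The ligand Cx3cl1 had intensities of 6949 to 10491 in calorie restricted and 6039 to 9421 in control mice. Its relative log2 change was 0.45 ± 0.18 (SE; limma adjusted p = 0.284).

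Csf1r was measured by 2 tested probe sets that pointed in opposite directions. Probe set 104354_at gave 1442, 1058, 1317, 1294 and 1627 in calorie restricted replicates 1 to 5, against 812.7, 1119, 1178, 1293 and 1158 in control replicates 1 to 5. The diets overlapped, and the relative log2 change was 0.43 ± 0.18 (SE; limma adjusted p = 0.301). Probe set 161832_r_at gave 216.4, 257.3, 48.1, 110.4 and 46.4 in calorie restricted mice, against 258.7, 266.4, 274.6, 171.9 and 199.6 in control mice. Calorie restricted replicates 3 and 5 were lowest there, and its relative change was -0.96 ± 0.49 (SE; limma adjusted p = 0.140). Without those 2 arrays its change was -0.23, and with RNA quality as a covariate it was 0.15, while 104354_at stayed above 0 in both, at 0.29 and 0.24. The mean log2 signal of 161832_r_at in calorie restricted mice, 6.74, was under the lowest mean tested. Of the ligands, Csf1 had 709.7 to 937.4 in calorie restricted and 680.7 to 1118 in control mice, with a relative change of 0.10 ± 0.18 (SE; limma adjusted p = 0.878). Csf1 was added to the genes named for its bearing on Csf1r, after its values were seen.

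Itgam lay below the signal filter, at 11.98 to 53.3 with a median of 30.6 in calorie restricted mice and 42.2 to 235.6 with a median of 77.4 in control mice. Control replicate 3 overlapped with the upper calorie restricted mice. With no filter on signal its relative log2 change was -1.43 (limma adjusted p = 0.0983). Its partner chain Itgb2 was also below the filter.

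The adaptor Tyrobp gave 679.9, 336.3, 1203, 950.8 and 1737 in calorie restricted replicates 1 to 5, against 587.8, 589.1, 493.5, 359.3 and 1019 in control replicates 1 to 5. The 2 highest values were those of calorie restricted replicates 5 and 3, and replicate 2 lay below every control mouse. The relative log2 change was 0.73 ± 0.40 (SE; limma adjusted p = 0.344). It was 0.17 without replicates 3 and 5 and -0.18 with RNA quality as a covariate. Fcer1g was dim on both of its probe sets, at 22.1 to 82.9 in calorie restricted and 25.8 to 129.9 in control mice on 160692_at, and at 17.4 to 80.1 in calorie restricted and 6.3 to 25.5 in control mice on 162181_f_at. With no filter the pair again disagreed, with relative changes of -0.20 and 1.74 (limma adjusted p = 0.642 and 0.136). The 3 probe sets of Ptprc stayed between 4.0 and 68.1 in calorie restricted and between 3.2 and 62.2 in control mice, overlapped between diets, and had limma adjusted p from 0.548 to 0.940 with no filter.

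**Figure D1:**
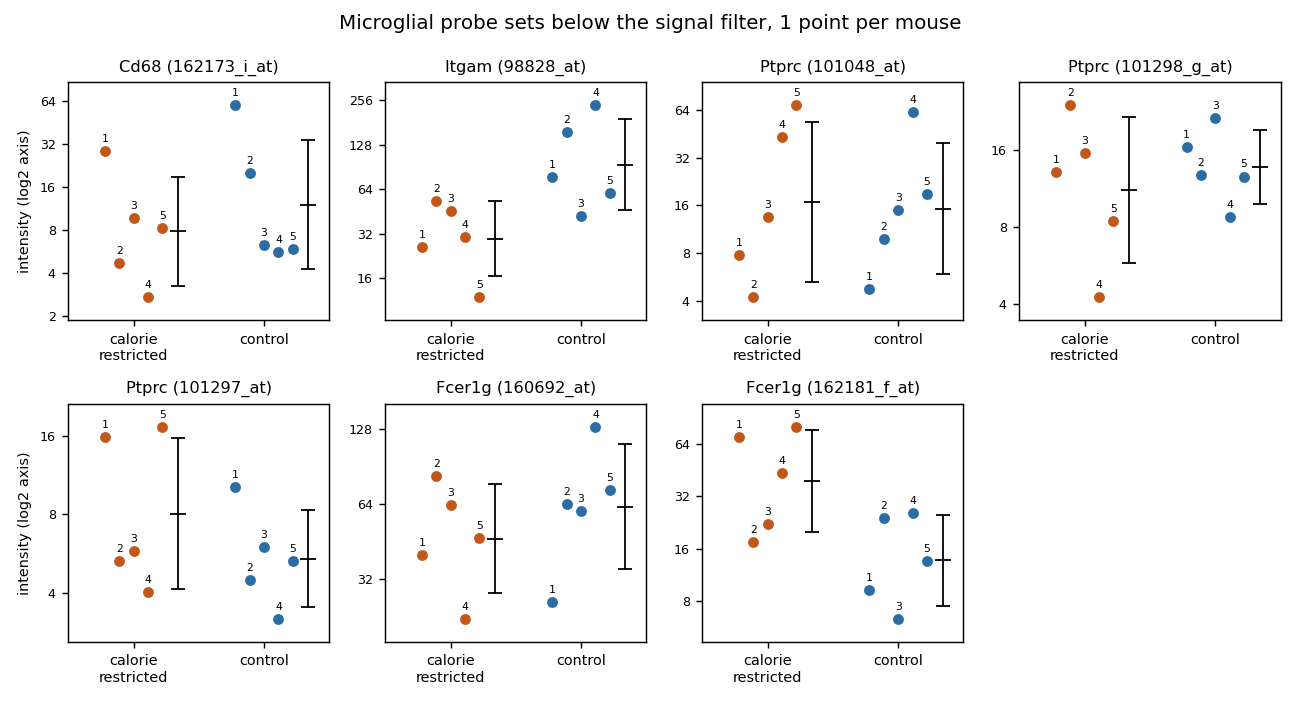
Intensity of the 7 marker probe sets below the signal filter, on log2 axes, with 1 numbered point per mouse, calorie restricted left and control right; bars are the mean and SD of log2 values (n = 5 each). All 7 overlapped between diets, as did all but 4.15% (lower) and 0.644% (higher) of the probe sets below the filter, and the 3 Ptprc probe sets did not exceed 68.1 on any array.

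Aif1 gave 192.8, 222.7, 194.3, 179.2 and 221.1 in calorie restricted replicates 1 to 5, against 150.5, 80.9, 139.5, 45.0 and 77.9 in control replicates 1 to 5. All 5 calorie restricted mice lay above the highest control mouse, and they spread less, with an SD of 0.14 on the log2 scale against 0.71 in control mice. Among the 9 tested marker probe sets, Aif1 was the 1 that was higher without overlap and Cx3cr1 and Cd68 the 2 that were lower. Over all tested probe sets 4.96% and 9.35% were so, or 14.3% in both directions. The relative log2 change of Aif1 was 1.31 ± 0.36 (SE), 2.48-fold, and it missed the threshold (limma adjusted p = 0.0520). It passed under quantile normalization at 1.56, with arrays centred on their median, with an offset and with no variance trend (limma adjusted p = 0.0275, 0.0327, 0.0409 and 0.0359). It missed the threshold at 1.23 without calorie restricted replicates 3 and 5 (limma adjusted p = 0.121). Holding RNA quality in the fit brought Aif1 to 1.21, and adding spike-in signal to 0.55, both misses (limma adjusted p = 0.175 and 0.90). Array weights, the replicate number as a block and dropping the signal filter gave misses too (limma adjusted p = 0.0642, 0.0842 and 0.0701). So did leaving out each of the 10 arrays in turn (limma adjusted p = 0.0535 to 0.107). The mean log2 signal of control mice, 6.49, lay under the lowest mean tested, so the size of this change is uncertain.

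**Figure D2:**
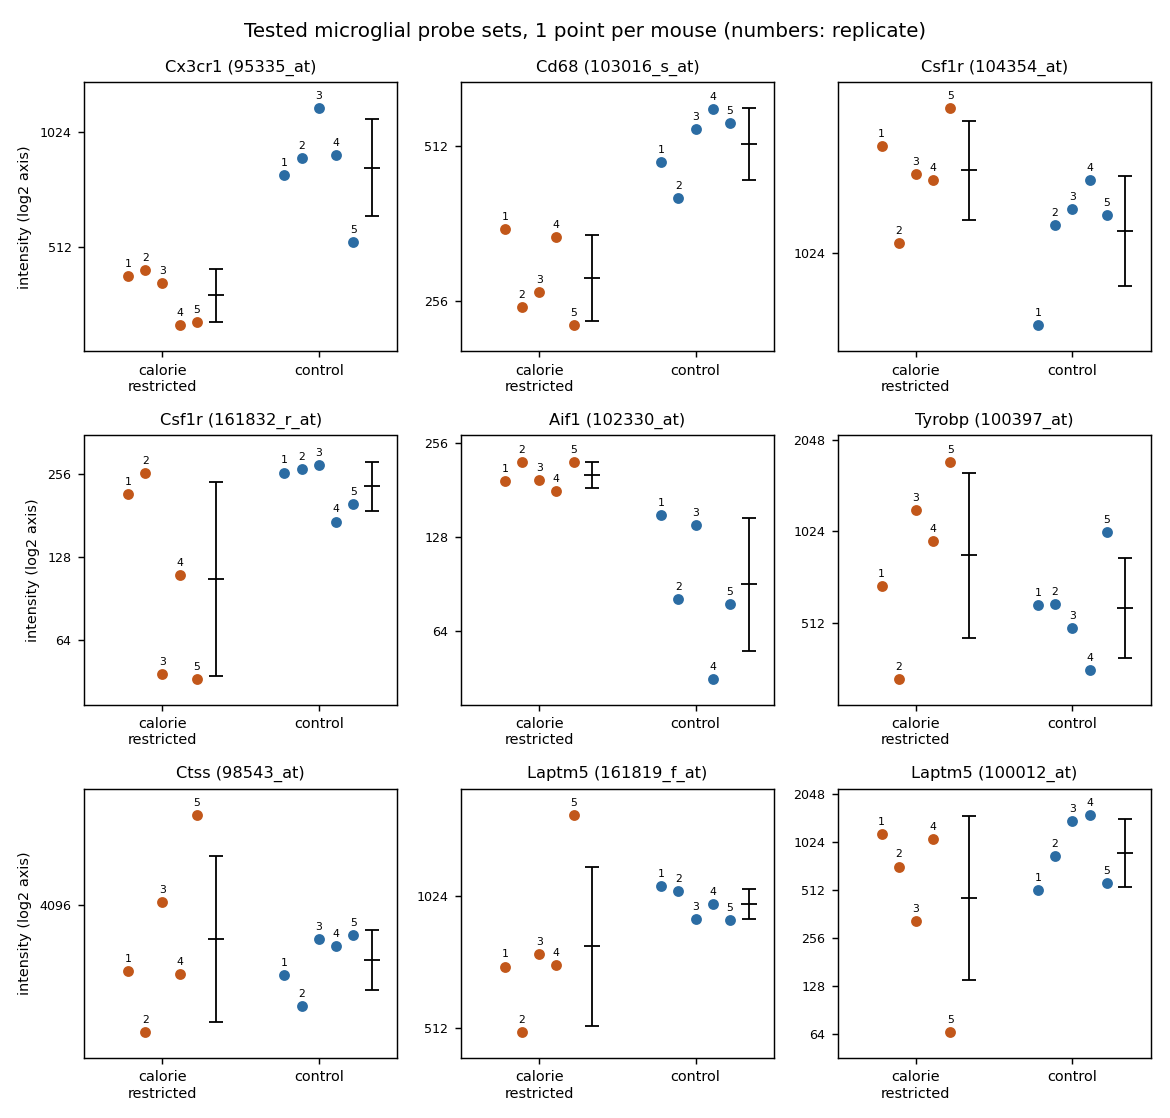
Intensity of the 9 tested marker probe sets, on log2 axes, with 1 numbered point per mouse, calorie restricted left and control right; bars are the mean and SD of log2 values (n = 5 each). Diets do not overlap for Cx3cr1, Cd68 and Aif1, and calorie restricted replicate 5 is at an extreme of its diet in 7 of the 9.

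Cd68 on 103016_s_at gave 353.5, 248.8, 266.0, 340.0 and 229.3 in calorie restricted replicates 1 to 5, against 475.5, 405.4, 551.8, 604.6 and 567.6 in control replicates 1 to 5. Every calorie restricted mouse lay below every control mouse. Mean intensity was 287.5 ± 55.8 (SD, n = 5) in calorie restricted mice, against 521.0 ± 79.9 (SD, n = 5) in control mice, and the relative log2 change was -0.71 ± 0.20 (SE), or 1.64-fold lower (limma adjusted p = 0.0217). It passed without replicates 3 and 5 at -0.63 (limma adjusted p = 0.0455). It did not pass with arrays centred on their median or under quantile normalization (limma adjusted p = 0.0516 and 0.0713). In the centred fit, p tests the change after each array's own median is taken off, which is not the relative change. It also missed the threshold without calorie restricted replicate 3, control replicate 3 or control replicate 4 (limma adjusted p = 0.0503, 0.0587 and 0.0589), and in the fit that held RNA quality (-0.58; limma adjusted p = 0.118). The other Cd68 probe set, 162173_i_at, was near the bottom of the scale at 2.7 to 28.8 in calorie restricted and 5.6 to 59.8 in control mice.

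Ctss, the brightest of the lysosomal probe sets on every array, gave 3081, 2369, 4150, 3038 and 6059 in calorie restricted replicates 1 to 5, against 3032, 2652, 3538, 3436 and 3598 in control replicates 1 to 5. Calorie restricted replicates 3 and 5 lay above all control mice, while replicate 2 lay below them. The relative log2 change was 0.29 ± 0.23 (SE; limma adjusted p = 0.721), and it was -0.10 without replicates 3 and 5.

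Laptm5, a lysosomal membrane protein of blood and immune cells, had 2 tested probe sets that ordered the mice differently in both diets. Probe set 161819_f_at gave 706.6, 500.9, 754.6, 710.6 and 1574 in calorie restricted mice, against 1078, 1051, 909.6, 984.4 and 905.3 in control mice. Replicate 5 was the highest of all 10 mice, and the other 4 calorie restricted mice lay below every control mouse. The relative log2 change was -0.17 ± 0.26 (SE; limma adjusted p = 0.408). Without replicate 5 it was -0.45, and it passed (limma adjusted p = 0.0407). Without replicates 3 and 5 it was -0.54 (limma adjusted p = 0.0345). Probe set 100012_at gave 1138, 714.7, 327.7, 1063 and 66.0 in calorie restricted mice, against 511.8, 826.4, 1376, 1509 and 565.4 in control mice, so that here replicates 5 and 3 were the lowest of all 10. Its change was -0.79 ± 0.68 (SE; limma adjusted p = 0.355), and 0.24 without those 2 arrays.

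**Figure D3:**
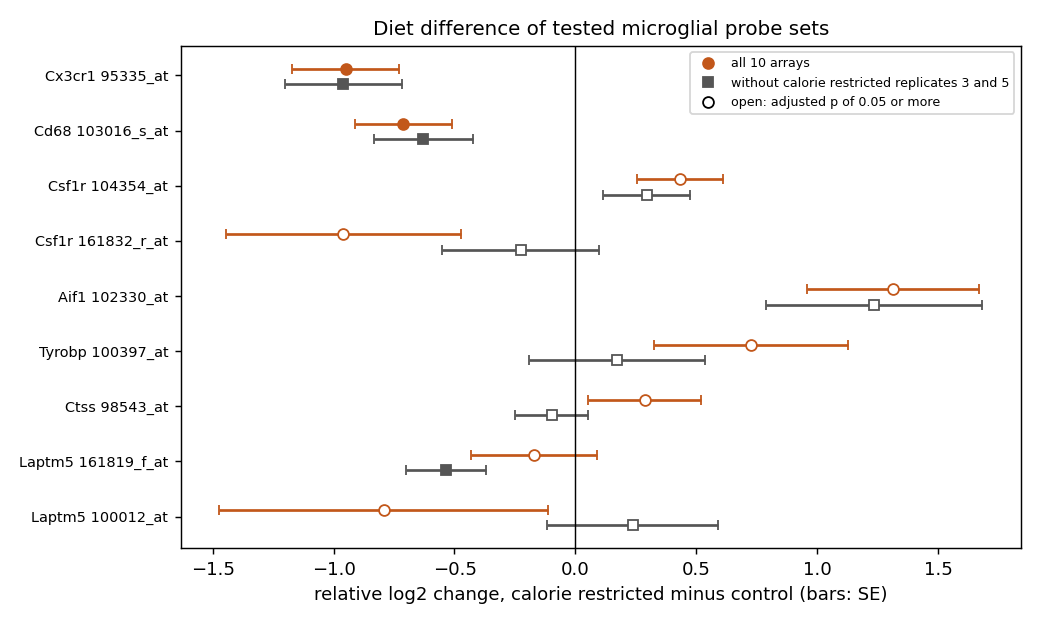
Relative log2 change (calorie restricted minus control, x axis) of the 9 tested marker probe sets with bars of SE, from all 10 arrays (circles) and without calorie restricted replicates 3 and 5 (squares); open symbols did not pass. Cx3cr1 and Cd68 keep their place at -0.95 and -0.96, and -0.71 and -0.63, while Laptm5 161819_f_at moves to -0.54, Csf1r 161832_r_at to -0.23 and Tyrobp to 0.17, and Ctss and Laptm5 100012_at turn to -0.10 and 0.24.

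The 9 tested probe sets did not all rank the mice in a common order, though 4 of them shared both extremes among calorie restricted mice. In the 9, calorie restricted replicate 5 was the highest of its diet in 4 and the lowest in 3, and replicate 2 the highest in 3 and the lowest in 4. The 4 with replicate 5 highest were the same 4 with replicate 2 lowest: Csf1r 104354_at, Tyrobp, Ctss and Laptm5 161819_f_at. Replicate 3 was neither in any. Among control mice each was the highest in 0 to 3 and the lowest in 0 to 3. Calorie restricted mice had the larger SD on the log2 scale in 6 of the 9, and in 76.0% of all tested probe sets. The exceptions were Cx3cr1, Aif1 and Csf1r on 104354_at.

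**Figure D4:**
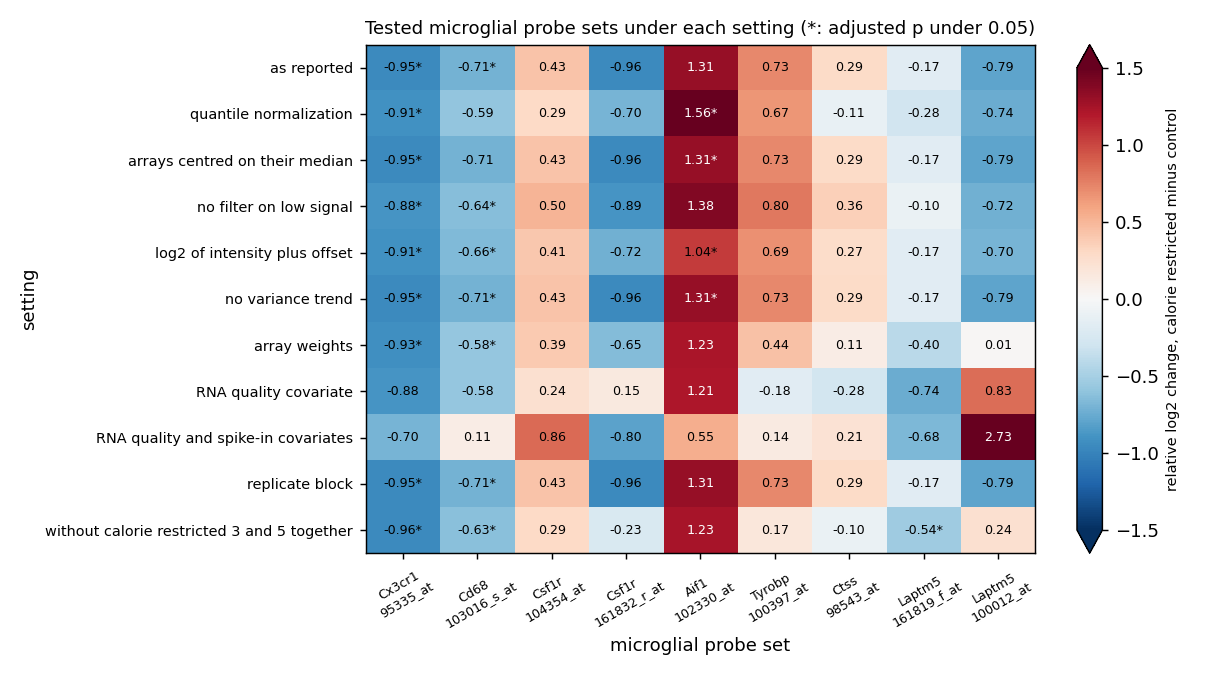
Relative log2 change of the 9 tested marker probe sets (columns) under each setting (rows), coloured from blue, lower in calorie restricted mice, to red, higher; asterisks mark an adjusted p under 0.05. Cx3cr1 passes in 9 of the 11 settings shown, and 0 probe sets pass with RNA quality as a covariate, alone or with spike-in signal.

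The share of all tested probe sets that passed moved with the setting too. It was 8.06% under quantile normalization, 11.3% with arrays centred, 13% with an offset, 11.6% with no variance trend and 14.1% with array weights. It was 4.47% with RNA quality in the fit, 0.00% with spike-in signal added, 7.25% with the replicate block and 6.36% with no filter. At an unadjusted p under 0.05 the covariate fits gave 23.6% and 12.2%. Leaving out calorie restricted replicates 1 to 5 in turn gave 13.2%, 16.8%, 4.68%, 7.53% and 11.9%, and leaving out control replicates 1 to 5 gave 5.65%, 3.39%, 3.68%, 4.04% and 7.42%. With the probe sets of a gene averaged, 9.57% of genes passed, Cx3cr1 among them.

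The lists of other microglial genes and of the pathways around these receptors are read against the 4.11% of tested probe sets that passed as higher and the 7.74% that passed as lower. Of 9 tested microglial surface and secreted genes beyond the 10 markers, 0 rose and 2 fell, with a median relative log2 change of -0.37. Mertk, a receptor for the engulfment of dying cells, had 192.4 to 272.3 in calorie restricted and 329.4 to 567.0 in control mice, a change of -0.78 ± 0.21 (SE; limma adjusted p = 0.0197). Ltc4s, leukotriene C4 synthase, had 145.6 to 408.5 in calorie restricted and 446.0 to 605.4 in control mice, a change of -0.83 ± 0.29 (SE; limma adjusted p = 0.0448). Both were lower without overlap between diets, as were 9.35% of all tested probe sets. Without calorie restricted replicates 3 and 5 the list had a median of -0.11, and 1 gene, Mertk, fell, where 10.5% of the array passed. With RNA quality in the fit the median turned to 0.23 and 0 passed, with Mertk at -0.72 and Ltc4s at -0.27 (limma adjusted p = 0.0914 and 0.394).

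None of 8 tested genes of Fc receptors and of signalling below Tyrobp and Fcer1g passed, and their median was -0.22. Inpp5d, the phosphatase SHIP1 that restrains this signalling, had 57.5 to 255.5 in calorie restricted and 298.9 to 505.1 in control mice. Lower without overlap, as were 9.35% of all tested probe sets, it missed the threshold (limma adjusted p = 0.0671). Mean log2 signal came to 7.35 in calorie restricted mice, against 8.51 in control mice. Syk had -0.28 ± 0.18 (SE) and the high-affinity Fc receptor Fcgr1 -0.42 ± 0.26 (limma adjusted p = 0.121 and 0.156). Among 6 tested myeloid transcription factors 0 passed, with a median of -0.51 on all arrays, -0.06 without replicates 3 and 5 and 0.02 with RNA quality in the fit. Irf5, an activator of inflammatory genes, had -0.51 ± 0.22 (SE; limma adjusted p = 0.0644), Mef2a -0.52 ± 0.23 and Cebpa -0.66 ± 0.32 (limma adjusted p = 0.0742 and 0.110). Spi1, which encodes PU.1, lay below the signal filter. Which cells of the tissue gave the signal of these factors was not measured.

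The 4 tested ligands of microglial receptors and the 6 tested genes of leukocyte integrins and adhesion had medians of 0.28 and -0.10, and 0 passed. The integrin median turned to 0.15 without replicates 3 and 5 and to 0.02 with RNA quality in the fit. The ligand median was -0.0047 under quantile normalization. Besides Cx3cl1, Cd47, a signal that restrains engulfment, had 0.66 ± 0.19 (SE; limma adjusted p = 0.0934), and Cd200 had -0.12 ± 0.20 (limma adjusted p = 0.363). Itgax, Lcp1 and Itgb1 had -0.58, -0.35 and 0.79 (limma adjusted p = 0.104, 0.225 and 0.251), and another probe set of Itgb1 had the opposite direction. Of 10 tested genes known from disease-associated microglia, 1 fell and 0 rose, with a median of -0.16. That gene, the protease inhibitor Timp2, which other brain cells express too, had a change of -1.75 ± 0.47 (SE; limma adjusted p = 0.0265). Timp2 kept its call without replicates 3 and 5 and lost it with RNA quality in the fit, at -1.06 and -0.69 (limma adjusted p = 0.0451 and 0.190). Apoe, a lipid carrier that astrocytes also make, had 0.30 on all arrays (limma adjusted p = 0.791). It passed as higher in both of those fits, at 0.85 and 1.14 (limma adjusted p = 0.0154 and 0.0224), and is named after its values were seen. Among inflammatory mediators 10 of 13 measured lay below the filter. The 3 tested, Cd14, Nfkbia and Ccl3, had -0.34, -0.35 and -0.37, short of the threshold (limma adjusted p = 0.120, 0.196 and 0.205). Without replicates 3 and 5 Cd14 passed as lower, at -0.59 (limma adjusted p = 0.0460), where 10.5% of the array passed. With RNA quality in the fit Cd14 had -0.63 and missed the threshold (limma adjusted p = 0.0900).

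Markers of other immune cells were also measured, and their part in the marker results was not tested. Summed over 11 of 15 monocyte and neutrophil genes, intensity was 1209 to 1641 in calorie restricted and 1281 to 1876 in control mice. Of 5 tested, the neutrophil elastase gene Elane fell by 0.65 ± 0.23 (SE) on the log2 scale (limma adjusted p = 0.0430). Summed over 6 of 9 border macrophage genes it was 542.7 to 698.3 in calorie restricted and 704.9 to 1224 in control mice. The diets did not overlap, as in 14.3% of tested probe sets over the array, but the gap was narrow. That sum includes probe sets below the filter. The sums given here were not adjusted for the lower median signal of the calorie restricted arrays. The 3 tested did not share a direction, and their median was 0.24. The folate receptor Folr2 fell by 1.34 ± 0.42 (SE; limma adjusted p = 0.0389), while Cbr2 and Stab1 had 0.24 and 0.43 (limma adjusted p = 0.903 and 0.525). Cbr2 and Stab1 are named after their values were seen. Neither Elane nor Folr2 passed without calorie restricted replicates 3 and 5. For 11 of 13 T and NK cell genes the sum was 249.3 to 1062 in calorie restricted and 557.2 to 1051 in control mice, with 1 tested. For 6 of 7 B cell genes it was 1215 to 2308 in calorie restricted and 1440 to 2697 in control mice, with 5 tested. In both lists 0 genes passed. Of 3 tested red blood cell genes Hbb-b2 fell by 1.46 ± 0.34 (SE; limma adjusted p = 0.0154), with list sums of 4105 to 8696 in calorie restricted and 4398 to 15941 in control mice. The 10 microglial markers, each by its brightest probe set, summed to 5322 to 11902 in calorie restricted and 7001 to 8105 in control mice.

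Counts for the other cell types of the tissue are set beside those of the microglial markers here. In calorie restricted mice 0 of 7 microglial genes rose and 2 fell, as did 1 and 3 of 9 astrocyte, 0 and 3 of 8 oligodendrocyte, 1 and 4 of 12 neuronal, 0 and 0 of 6 brain endothelial and 0 and 2 of 5 choroid plexus genes, where 4.11% of all tested probe sets passed as higher and 7.74% as lower. Without calorie restricted replicates 3 and 5 the counts were 0 and 3 for microglial, 2 and 3 for astrocyte, 0 and 2 for oligodendrocyte, 0 and 3 for neuronal and 0 and 0 for endothelial and choroid plexus genes, where 10.5% of the array passed in either direction. Differences between these lists were not tested.

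**Figure D5:**
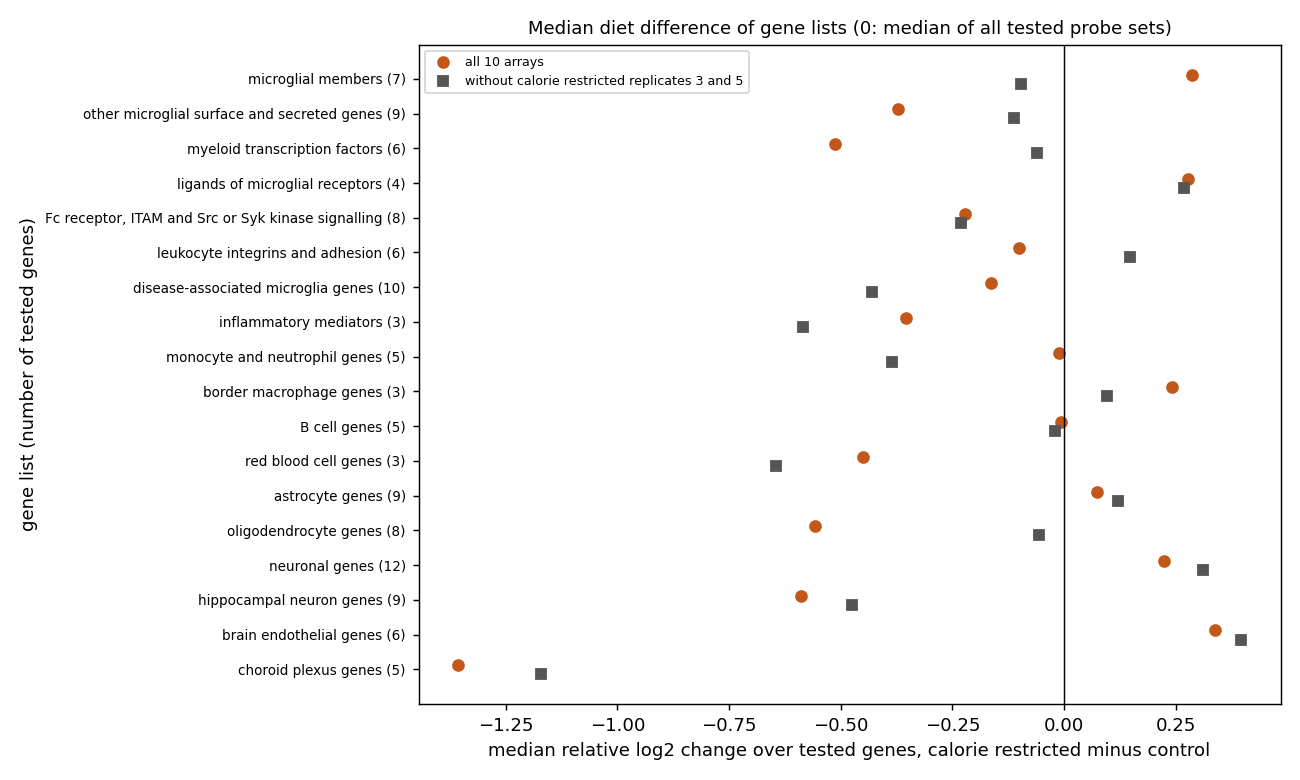
Median relative log2 change over the tested genes of each list (x axis, calorie restricted minus control), from all 10 arrays (circles) and without calorie restricted replicates 3 and 5 (squares); lists with under 3 tested genes are left out. The 7 microglial markers sit at 0.29 on all arrays and at -0.10 without the 2 arrays, and the choroid plexus genes are farthest from 0, at -1.36.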

How the data were processed

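Hippocampal RNA of 10 mice was measured on 10 arrays. Per the labels' protocols, total RNA was extracted with Trizol and made into biotinylated cRNA by the Affymetrix protocol. The authors deposited 1 linear intensity per probe set and array, and MAS5 is the tool named per the submitters' processing notes. The sources used here give no MAS5 version, and detection calls and background were not analysed here. Of 12488 probe sets, 66 controls served only for RNA quality and spike-in signal. Intensities under 1 (41 of 124880) were set to 1, log2 was taken, and probe sets with a mean below the 40th percentile were left out. Diets were compared with limma 3.58.1 in R 4.3.3 (lmFit, eBayes with a trend, no covariate, two-sided), with Benjamini-Hochberg adjustment over 7453 probe sets. The fit was tested on simulated data with changes larger than those of the tested markers, equal spread in both diets and no RNA quality difference. That test does not cover changes of the markers' size or diets that differ in RNA quality. The number of arrays limits the precision.

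Gene names are those of the platform annotation, under which 10833 probe sets carried 1 symbol, 396 carried several and 1193 had no symbol. The marker genes, gene lists, alternatives and tests were chosen with earlier results of these data known. Every marker gene is named, and the values given cover all of its probe sets, with those of Ptprc pooled into a shared range per diet. From each other list, the text names genes past the threshold or, failing that, the 3 with the smallest p, by the brightest probe set per gene. For T cell, B cell and the other tissue cell types only counts are given. The alternatives changed normalization, scaling, filter, offset, variance model, array weights, covariates, replicate block, threshold, probe sets per gene and the arrays used.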

Additional observations from a re-analysis of the deposited data

Results flagged for a closer look

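Arrays were compared within each diet for the marker probe sets, the other named genes and the quality measures. Of 80 groups of 5 arrays, 4 had 1 array far from the rest, and chance gives about 1 in 20; 0 of them were marker probe sets. Mef2a was 669.5 in calorie restricted replicate 5, with 1298 next, a gap of 0.813 of the diet's log2 range. Cd200 was highest in the same mouse, at 638.5 with 420.1 next (0.791). Folr2 was lowest there, at 40.0 with 126.4 next (0.733), and Folr2 did not pass without calorie restricted replicates 3 and 5. Ccl3 was lowest in control replicate 1, at 149.4 with 187.1 next (0.764).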

How the results depend on the processing

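Over the array 883 probe sets passed, with 333 under the RNA quality covariate, 540 under the replicate block, 1627 at an adjusted p under 0.1, and 253 to 1251 with 1 array left out. The limma fit holding both covariates, RNA quality and spike-in signal, passed 0, and 907 had an unadjusted p under 0.05. The split of 306 higher and 577 lower was 322 and 279 under quantile normalization and 575 and 266 with arrays centred, where Cx3cr1 and Aif1 were the markers that passed. Of the markers, 2 probe sets passed on all arrays. The count was 0 with RNA quality as a covariate and 0 with spike-in signal added (4 and 1 at an unadjusted p under 0.05 in limma). It was 1 to 3 with 1 array left out, and 1 of 5 genes, Cx3cr1, when the probe sets of a gene were averaged, where Cd68 and Aif1 fell under the filter. Cx3cr1 passed without each of the 10 arrays in turn, at -1.12 to -0.82. The median change of the markers, -0.17, became 0.014 with array weights and 0.14 with both covariates, and ran from -0.21 to -0.00062 with 1 array left out.

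Signs turned as follows. Ctss had -0.11 under quantile normalization, -0.28 with RNA quality as a covariate and -0.097 without calorie restricted replicates 3 and 5. Laptm5 100012_at had 0.014 with array weights, 0.83 with RNA quality, 2.73 with both covariates and 0.24 without replicates 3 and 5. With RNA quality Csf1r 161832_r_at had 0.15 and Tyrobp -0.18. Cd68 103016_s_at had 0.11 with both covariates. The cause was not tested. In the fit with the replicate number as a block, Cx3cr1 and Cd68 passed (limma adjusted p = 0.0336 and 0.0490) and no other marker did. The arrays gave no sign that the numbers pair the mice, though weak correlations cannot show that they were unpaired. Correlations of same-numbered arrays' deviations from their diet means ran from -0.076 to 0.17. Of 5 calorie restricted arrays, 1 correlated best with its own number. Signal over background was not measured, which limits the probe sets near or below the filter.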

Other observations

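Some immune genes too dim to be tested did not overlap between diets. Of 57 such genes over all immune lists, the markers, T and NK cell and B cell genes included, each by its brightest probe set, 5 were lower without overlap and 0 were higher, against 4.15% and 0.644% of all 4969 probe sets below the filter. The 5 were picked for this after their values were seen. Nos2, the inducible nitric oxide synthase, had 14.2 to 58.2 in calorie restricted and 87.4 to 230.2 in control mice. Ikzf1, a lymphoid and myeloid transcription factor, had 44.6 to 90.5 in calorie restricted and 101.4 to 225.2 in control mice. Lcp2, an adaptor below immune receptors, had 2.2 to 70.0 in calorie restricted and 74.1 to 101.2 in control mice. Mpo, the myeloperoxidase gene, had 21.7 to 64.8 in calorie restricted and 80.9 to 178.2 in control mice, and the platelet factor Pf4 had 11.6 to 45.8 in calorie restricted and 79.9 to 137.5 in control mice. The median log2 signal of calorie restricted arrays was itself lower, at 7.25 to 7.69 against 7.79 to 7.92 in control mice.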
